A study of Mus musculus with 12 samples.

Results

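Coenzyme Q, or ubiquinone, is the lipid that carries electrons between the dehydrogenases of the mitochondrial inner membrane and complex III, and 10 genes of its synthesis were followed here out of 24452 genes in the deposited expression table. The members were taken by name from a fixed list: Pdss1, Pdss2, Coq2, Coq3, Coq4, Coq5, Coq6, Coq7, Coq9 and Coq10a. All 10 were present in the table, and all 10 passed the filter on low values (a mean of at least 0.5 RPKM, reads per kilobase of gene, scaled to the size of the library). Total RNA of brown adipose tissue from male mice of the C57BL/6J Bom strain, aged 12 weeks and kept at 30 °C, had been sequenced in 4 groups of 3 libraries. All mice carried floxed alleles of ERRα and ERRγ, a pair of orphan nuclear receptors known as activators of mitochondrial genes. WT_PBS and WT_CL came from littermates without Cre, and ERRKO_PBS and ERRKO_CL from ERRαγAd-/- mice, in which, per the labels, Cre under the adiponectin promoter deletes both receptors in adipose tissue. The CL groups received the β3-adrenergic agonist CL316,243 by intraperitoneal injection at 1 mg/kg daily for 10 days, and the PBS groups the same volume of vehicle, with tissue taken 24 h after the last dose. Other cell types of the tissue keep the receptors. Whether each library is its own animal is not in the labels, and the p-values then describe only the scatter of these samples, which may be technical.

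Ubiquinone, which is made in mitochondria, has a benzoquinone ring and a long isoprenoid tail. Pdss1 and Pdss2 form the enzyme that makes the tail from mevalonate pathway precursors, and Coq2 joins the tail to the ring. Coq6 and Coq7 hydroxylate the ring, Coq3 and Coq5 methylate it, Coq9 is a lipid-binding partner of Coq7, and Coq4 is a further component of the membrane-bound synthesis complex. Coq10a is not a synthesis enzyme but a lipid-binding protein thought to chaperone ubiquinone. In brown fat the respiratory chain runs fast when uncoupled, and ubiquinone is the point where electrons from complex I, complex II and fatty acid oxidation meet.

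Levels are RPKM divided by a median-of-ratios factor for each library (scaled RPKM), a step that centres the median gene, because on the deposited scale the median of 12249 tested genes was 0.53 (log2) higher in ERRKO_PBS than in WT_PBS and 0.63 higher in ERRKO_CL than in WT_CL. Changes are differences of log2(scaled RPKM + 0.5) ± SE, with limma p-values adjusted over all tested genes and a threshold of 0.05, and they understate the change of low genes. The depth in recovered reads was 8478310 to 9727167 per library in WT and 12468001 to 13263567 in ERRKO. Esrra, which encodes ERRα, was between 41.6 and 83.3 scaled RPKM in WT and between 5.25 and 8.89 in ERRKO libraries. Esrrg, which encodes ERRγ, did not follow the label under agonist. It was at 8.26, 7.96 and 4.41 in WT_PBS and 3.59, 2.29 and 4.71 in ERRKO_PBS, where the groups overlapped (-0.87 ± 0.25, adjusted p = 0.018), and at 8.15, 7.02 and 5.63 in WT_CL and 6.40, 6.63 and 8.14 in ERRKO_CL (0.03 ± 0.25, adjusted p = 0.94). Within ERRKO it was higher with agonist (0.95 ± 0.25, adjusted p = 0.034). Its highest values in both ERRKO groups were in replicate 3, and the other 2 ERRKO_CL libraries still lay within the WT_CL range. These are values of the whole gene, and which exons are floxed is not in the labels, so they do not tell deleted from intact transcripts. WT and ERRKO therefore stand for the labelled genotype throughout, and every direction below is one between libraries so labelled. Ucp1, the defining gene of brown fat, was at 315 to 2973 in WT and at 3.24 to 54.6 in ERRKO libraries, and Cidea, a lipid droplet gene high in brown fat, at 955 to 1766 in WT and 94.6 to 427 in ERRKO. Of the 8 brown and general adipocyte markers these 2 lay below all WT libraries in both genotype comparisons, and Elovl3 only under agonist. Adrb3, the receptor of CL316,243, and the lipid droplet genes Plin1 and Lipe lay above WT in both comparisons, and Fabp4 and Adipoq only under agonist. The part of these differences in the results below was not tested. All 12 skeletal muscle markers were detected, with a summed level of 6.92 to 419 in WT libraries, 115 to 3480 in ERRKO_PBS and 225 to 1813 in ERRKO_CL, highest in replicate 3 of each ERRKO group. The part of muscle RNA in the results below was not tested beyond leaving out those libraries. In whole tissue, fewer cells of a type and less RNA per cell cannot be told apart.

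In vehicle-treated tissue, most of the pathway, but not all of it, was lower in ERRKO than in WT. Of the 10 genes 7 were lower in ERRKO_PBS than in WT_PBS, none was higher and 3 did not pass, with a median change of -1.07 against 0.00 for all tested genes. Over all tested genes 18.6% were called lower and 15.6% higher in this comparison. The 7 that fell were Coq7, Coq6, Coq9, Pdss1, Coq10a, Coq5 and Coq4, in order of size, and the 3 that did not pass were Pdss2, Coq2 and Coq3. These 7 were also the members whose ERRKO_PBS libraries all lay below all WT_PBS libraries, a separation seen in that direction for 23.1% of tested genes.

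**Figure D1:**
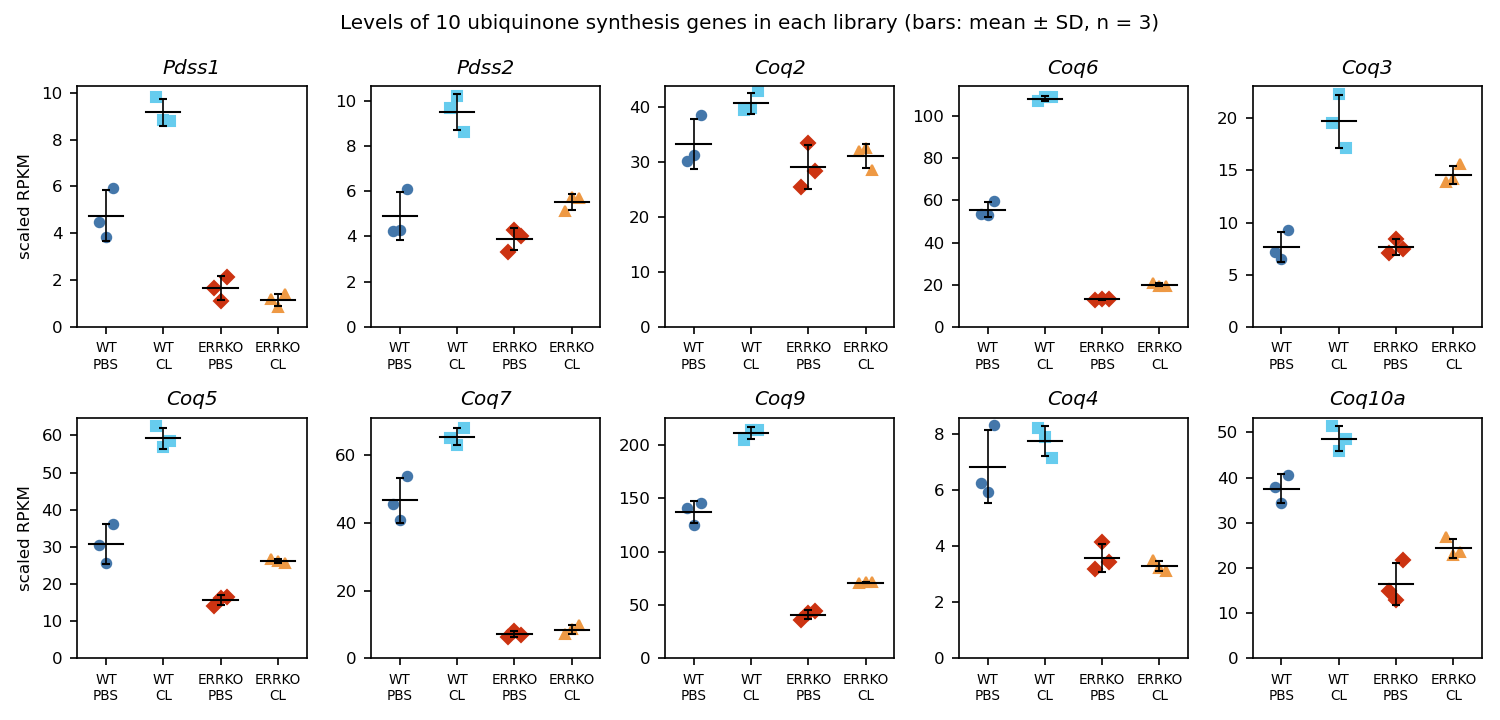
Scaled RPKM (vertical axis, starting at 0) of each of the 10 genes in the 3 libraries of each group, with bars for the mean ± SD. Coq7, Coq6 and Coq9 are several times lower in both ERRKO groups, while Coq2 and Coq3 under PBS lie at 25.5 to 38.5 and 6.51 to 9.28 in both genotypes.

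The largest fall was that of Coq7 (chromosome 7, 118509659 to 118533356, minus strand in GENCODE M21 on GRCm38), the hydroxylase of the penultimate step. Coq7 was at 45.5, 40.7 and 53.7 scaled RPKM in WT_PBS and at 6.41, 8.02 and 6.94 in ERRKO_PBS. The groups did not overlap, and the ERRKO_PBS mean was 15.3% of the WT_PBS mean (-2.62 ± 0.13, adjusted p = 4.1e-08). Coq9 (chromosome 8, 94838321 to 94854895, plus strand), whose product binds lipid and supports Coq7, was the most abundant of the 10 genes in every group. Its level was 141, 125 and 145 in WT_PBS and 35.9, 42.5 and 44.2 in ERRKO_PBS, again without overlap. It fell less than Coq7 did, to 29.9% of the WT_PBS mean (-1.73 ± 0.09, adjusted p = 7.3e-08). Within each library, where scaling cancels, the ratio of Coq7 to Coq9 RPKM was 0.323, 0.325 and 0.372 in WT_PBS and 0.179, 0.189 and 0.157 in ERRKO_PBS, so the pair did not fall in proportion.

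Among the other ring-modifying enzymes the hydroxylase Coq6 stood apart from the methyltransferases. Coq6 (chromosome 12, 84361657 to 84373796, plus strand) measured 53.7, 53.3 and 59.9 in WT_PBS and at 12.9, 13.3 and 13.2 in ERRKO_PBS, a fall to 23.6% (-2.04 ± 0.07, adjusted p = 6.1e-09). The C-methyltransferase Coq5 (chromosome 5, 115279666 to 115296972, plus strand) measured 30.6, 25.6 and 36.1 in WT_PBS and at 14.2, 16.2 and 16.6 in ERRKO_PBS, or 50.9% of the mean (-0.94 ± 0.11, adjusted p = 4.9e-05). The O-methyltransferase Coq3 (chromosome 4, 21879673 to 21912162, plus strand) gave 7.17, 6.51 and 9.28 in WT_PBS against 7.05, 8.46 and 7.47 in ERRKO_PBS. The Coq3 groups overlapped fully and the change was 0.01 ± 0.13 (adjusted p = 0.95). Coq4 (chromosome 2, 29787493 to 29797935, plus strand) was low at 6.25, 5.92 and 8.33 in WT_PBS and lower at 3.20, 4.14 and 3.42 in ERRKO_PBS (-0.84 ± 0.13, adjusted p = 3.7e-04). Of its exon bases 27.1% overlap the antisense gene Trub2, and without stated use of strand the reads of the pair cannot be told apart, so the Coq4 values are uncertain.

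The enzyme that makes the tail showed a split between its subunits. Pdss1 (chromosome 2, 22895522 to 22940266, plus strand) measured 4.47, 3.84 and 5.94 in WT_PBS and at 1.66, 1.12 and 2.14 in ERRKO_PBS, all below the WT libraries (-1.30 ± 0.19, adjusted p = 2.4e-04). Pdss2 (chromosome 10, 43221486 to 43464882, plus strand) measured 4.26, 4.28 and 6.11 in WT_PBS and at 3.32, 4.27 and 4.03 in ERRKO_PBS, where the groups overlapped (-0.29 ± 0.14, adjusted p = 0.12). The RPKM of Pdss1 was close to that of Pdss2 in WT_PBS, with ratios of 1.05, 0.898 and 0.971, and was lower than it in ERRKO_PBS, with ratios of 0.499, 0.264 and 0.530. Pdss1 rested on few reads, from 27 to 197 per library over the whole study, and 9.44% of its exon bases overlap other genes.

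Coq2 (chromosome 5, 100654723 to 100675140, minus strand), the prenyltransferase that joins ring and tail, was at 30.2, 31.2 and 38.5 in WT_PBS and at 25.5, 33.4 and 28.4 in ERRKO_PBS. The groups overlapped and the change did not pass (-0.19 ± 0.12, adjusted p = 0.23). Coq7 stood above Coq2 in WT_PBS and far below it in ERRKO_PBS, as ratios of 1.51, 1.30 and 1.40 against 0.251, 0.240 and 0.244 show. The ubiquinone-binding protein Coq10a (chromosome 10, 128363100 to 128368997, minus strand) was at 37.9, 34.3 and 40.5 in WT_PBS and at 15.0, 12.8 and 21.7 in ERRKO_PBS (-1.19 ± 0.15, adjusted p = 8.6e-05). The highest ERRKO_PBS value of Coq10a was in replicate 3, the library with the most muscle RNA, and without that library and ERRKO_CL replicate 3 the change was -1.40 (adjusted p = 1.6e-05).

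The order of the genes by level therefore differed between the genotypes. In WT_PBS it ran Coq9, Coq6, Coq7, Coq10a, Coq2, Coq5, Coq3, Coq4, Pdss2 and Pdss1, with neighbouring ranges overlapping for Coq6 and Coq7, for Coq10a, Coq2 and Coq5, and for Coq3, Coq4, Pdss2 and Pdss1. In ERRKO_PBS it ran Coq9, Coq2, Coq10a, Coq5, Coq6, Coq3, Coq7, Pdss2, Coq4 and Pdss1, with overlap between Coq10a and Coq5, Coq3 and Coq7, and Pdss2 and Coq4. Coq7 thus moved from rank 3 to rank 7 and Coq2 from rank 5 to rank 2.

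The call of a fall depended on the scale for the genes that changed least. On the deposited scale 7 of the 10 genes were again lower, where 6.22% of all genes were called lower and 66.3% higher. There Coq2 (0.40, adjusted p = 0.0027) and Coq3 (0.58, adjusted p = 9.2e-04) were called higher in ERRKO_PBS, and Pdss2 turned to 0.25 without passing (adjusted p = 0.082). On recovered reads with edgeR the members gave the same calls as on the median-ratio scale, with 17.1% of all genes called lower, from -2.68 for Coq7 to 0.03 for Coq3. 

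**Figure D2:**
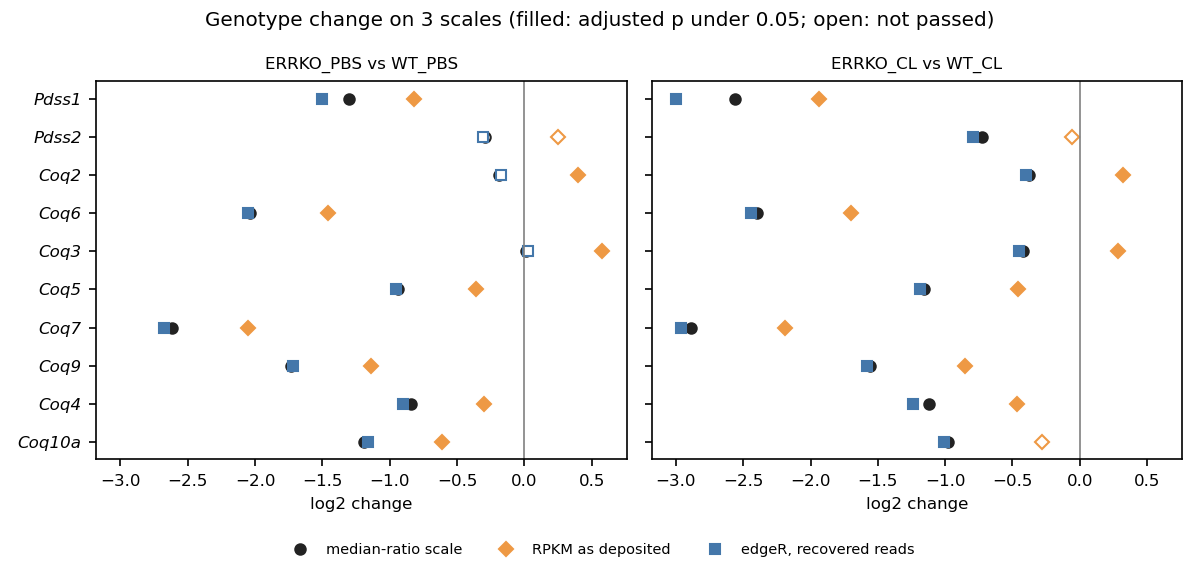
Log2 change between genotypes (horizontal axis) of each gene under PBS (left) and CL316,243 (right), on the median-ratio scale (circles), the deposited RPKM scale (diamonds) and from edgeR on recovered reads (squares), filled where adjusted p was under 0.05. The deposited scale lies to the right of both others for every gene. On it Coq2 crosses 0 in both panels, Pdss2 under PBS and Coq3 under CL316,243, while Coq7 stays at -2.05 or lower.

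With the agonist in both genotypes the whole set was lower in ERRKO than in WT. All 10 genes were called lower in ERRKO_CL than in WT_CL, with a median of -1.14 against 0.01 for all tested genes, where 21.6% of genes were called lower and 19.9% higher. In all 10 the ERRKO_CL libraries lay below the WT_CL libraries, as they did for 27.7% of tested genes. Coq7 was at 65.1, 63.0 and 68.0 in WT_CL and at 7.08, 8.58 and 9.77 in ERRKO_CL, or 13.0% of the mean (-2.89 ± 0.13, adjusted p = 1.2e-08). Pdss1 fell to a similar share, from 9.84, 8.84 and 8.80 to 1.18, 0.866 and 1.40 (-2.56 ± 0.19, adjusted p = 6.6e-07), which is 12.5% of the WT_CL mean. Coq6 was at 107, 109 and 109 in WT_CL against 21.0, 19.6 and 19.5 in ERRKO_CL (-2.40 ± 0.07, adjusted p = 8.4e-10). The ERRKO_CL means of these 3 genes were 12.5% to 18.5% of the WT_CL means.

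Differences of intermediate size were those of Coq9, Coq5, Coq4, Coq10a and Pdss2. Coq9 was at 204, 214 and 214 in WT_CL and 70.6, 71.0 and 71.1 in ERRKO_CL (-1.56 ± 0.09), and Coq5 at 62.4, 56.8 and 58.5 against 26.6, 26.2 and 25.6 (-1.16 ± 0.11). Coq4 differed by -1.12 ± 0.13, Coq10a by -0.98 ± 0.15 and Pdss2 by -0.73 ± 0.14, with adjusted p-values of 2.6e-05, 2.9e-04 and 0.0010. Pdss2, which had not passed under PBS, was at 9.69, 10.2 and 8.63 in WT_CL and at 5.12, 5.73 and 5.72 in ERRKO_CL. Whether its genotype difference changed with the agonist is the interaction given further on, which did not pass.

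Coq2 and Coq3 differed least between the genotypes under agonist. Coq2 was at 39.4, 39.7 and 42.9 in WT_CL against 32.0, 32.5 and 28.6 in ERRKO_CL (-0.38 ± 0.12, adjusted p = 0.019), and Coq3 at 19.6, 22.3 and 17.2 against 13.9, 14.2 and 15.6 (-0.42 ± 0.13, adjusted p = 0.023). Both calls depended on the scale and on single libraries. On the deposited scale both turned to higher in ERRKO_CL, Coq2 at 0.32 (adjusted p = 0.0087) and Coq3 at 0.28 (adjusted p = 0.048), while Pdss2 (-0.06) and Coq10a (-0.28) no longer passed, so that 6 genes were lower and 2 higher where 6.62% of all genes were called lower and 70.5% higher. The Coq2 call was lost with quantile normalization (-0.20, adjusted p = 0.091), without ERRKO_CL replicate 3 (adjusted p = 0.075), WT_CL replicate 3 (adjusted p = 0.069) or replicate 3 of both ERRKO groups (-0.33, adjusted p = 0.093), and the Coq3 call without ERRKO_CL replicate 1 or 2 (adjusted p = 0.067 and 0.064) or WT_CL replicate 1 or 2 (adjusted p = 0.056 and 0.095).

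**Figure D3:**
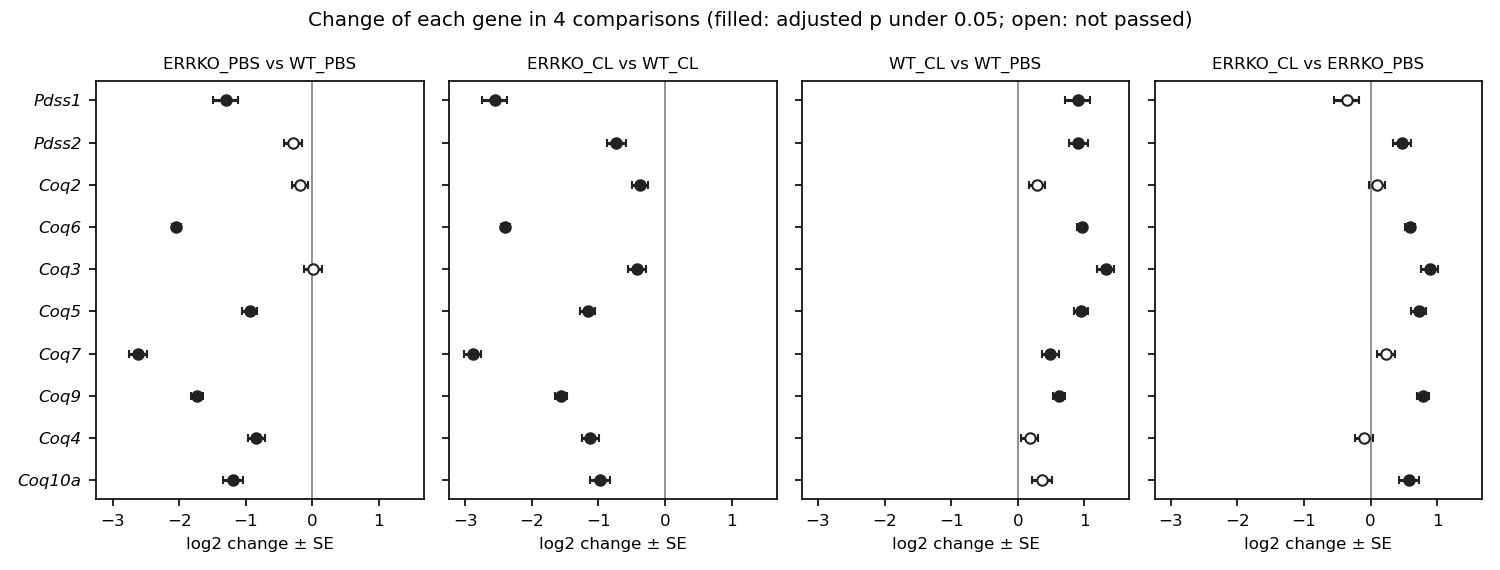
Log2 change ± SE (horizontal axis) of each gene in the 2 genotype comparisons and the 2 agonist comparisons, filled where adjusted p was under 0.05. All filled points lie below 0 between genotypes and above 0 for the agonist, and Coq7 has the lowest value in both genotype panels at -2.62 and -2.89.

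Promoters of the genes were read to show the sequence around annotated starts of transcription. RefSeq gives a promoter window, from 250 bases before to 50 after the start on GRCm38.p6, for 9 of the 10 genes. The long ERR response element TNAAGGTCA, searched on both strands, was found in none of the 9 and in 1.43% of all genes with a window, and its core AAGGTCA, which lies within the long form, in Pdss1 and Coq10a and in 5.38% of all genes. A motif of ETS factors, CCGGAAG, was found in Pdss1, Pdss2 and Coq6 and in 9.93% of all genes. A palindromic motif of NRF1 and the palindrome TGACGTCA of cAMP-responsive factors were found in none of the 9, against 1.07% and 2.03% of all genes. The last 3 motifs were chosen after the result for the ERR motif was seen, the matches are a description of these letters only, and no match bears on whether a factor acts elsewhere at the gene. Below are the windows of the tail enzyme pair, of Coq6 and Coq7 with the largest falls under PBS, and of the first of the Coq10a starts, in lower case with matches to any of the 5 motifs in capitals. Pdss1 covers chr2:22895272-22895571 (plus strand), Pdss2 chr10:43221236-43221535 (plus), Coq6 chr12:84361718-84362017 (plus), Coq7 chr7:118533307-118533606 (minus) and Coq10a chr10:128369988-128370287 (minus).
Pdss1: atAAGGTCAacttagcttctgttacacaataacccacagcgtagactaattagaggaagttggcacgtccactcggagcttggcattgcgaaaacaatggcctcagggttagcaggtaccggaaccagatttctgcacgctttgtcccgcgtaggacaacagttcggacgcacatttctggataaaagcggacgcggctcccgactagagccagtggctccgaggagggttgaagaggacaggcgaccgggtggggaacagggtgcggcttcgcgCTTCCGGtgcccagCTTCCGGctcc
Pdss2: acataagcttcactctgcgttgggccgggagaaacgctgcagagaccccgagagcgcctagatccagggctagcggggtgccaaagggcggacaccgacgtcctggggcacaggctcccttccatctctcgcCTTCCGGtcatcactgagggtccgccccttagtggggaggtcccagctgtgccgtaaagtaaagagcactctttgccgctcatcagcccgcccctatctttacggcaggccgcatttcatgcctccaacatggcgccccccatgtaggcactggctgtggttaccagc
Coq6: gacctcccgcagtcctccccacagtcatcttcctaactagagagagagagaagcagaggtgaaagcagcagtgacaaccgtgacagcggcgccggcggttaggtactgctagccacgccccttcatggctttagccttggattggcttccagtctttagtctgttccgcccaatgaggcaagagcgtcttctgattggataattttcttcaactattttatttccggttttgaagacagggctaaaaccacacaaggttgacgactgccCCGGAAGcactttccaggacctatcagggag
Coq7: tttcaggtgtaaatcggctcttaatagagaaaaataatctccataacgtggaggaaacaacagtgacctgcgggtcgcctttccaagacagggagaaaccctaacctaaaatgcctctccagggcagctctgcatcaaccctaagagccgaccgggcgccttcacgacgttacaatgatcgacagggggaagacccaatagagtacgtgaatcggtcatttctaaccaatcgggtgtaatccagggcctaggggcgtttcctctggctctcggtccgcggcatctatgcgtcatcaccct
Coq10a: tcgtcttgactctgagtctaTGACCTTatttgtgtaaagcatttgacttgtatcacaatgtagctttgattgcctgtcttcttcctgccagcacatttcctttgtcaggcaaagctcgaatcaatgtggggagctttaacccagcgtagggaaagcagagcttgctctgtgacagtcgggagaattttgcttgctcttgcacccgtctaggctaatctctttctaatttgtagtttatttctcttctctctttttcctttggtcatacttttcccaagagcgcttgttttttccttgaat
In Pdss1 the core AAGGTCA starts 248 bases before the start site, and in Coq10a it lies on the other strand from 230 to 224 bases before it. That Coq10a window lies upstream of the gene span given above, and the window of the other RefSeq start (chr10:128368931-128369230), which overlaps the start of that span, holds no AAGGTCA. The Coq6 window lies wholly inside the Coq6 span given above and does not reach the start of that span. The same holds for the window of Coq2 (chr5:100674207-100674506). Their matches therefore refer to the RefSeq starts only. Pdss2, whose level did not pass between genotypes under PBS, and Pdss1, which fell, both hold the ETS motif. Coq7, with the largest fall, holds none of the 5 motifs in this window.

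With the agonist most of the pathway was higher in WT tissue. Of the 10 genes 7 were higher in WT_CL than in WT_PBS, none was lower and 3 did not pass, with a median of 0.76 against 0.02 for all tested genes. Over all tested genes 18.1% were called higher and 12.2% lower. Coq3 rose most, from 7.17, 6.51 and 9.28 to 19.6, 22.3 and 17.2 (1.32 ± 0.13, adjusted p = 3.6e-05), a 2.57-fold higher mean. Coq6 (0.96 ± 0.07), Coq5 (0.95 ± 0.11), Pdss2 (0.91 ± 0.14) and Pdss1 (0.90 ± 0.19) rose by a like amount, with means 1.92-fold to 1.95-fold higher. Both tail subunits rose together here, and the Pdss1 to Pdss2 ratio was 1.02, 0.867 and 1.02 in WT_CL.

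Coq9 rose from 141, 125 and 145 to 204, 214 and 214 (0.62 ± 0.09, adjusted p = 5.6e-04). Its partner Coq7 rose from 45.5, 40.7 and 53.7 to 65.1, 63.0 and 68.0 (0.49 ± 0.13, adjusted p = 0.013), which did not pass on the deposited scale (0.17, with adjusted p = 0.24), with quantile normalization (0.29, adjusted p = 0.073) or without WT_PBS replicate 2 (0.40, adjusted p = 0.059). Coq10a at 0.37 ± 0.15 (adjusted p = 0.091), Coq2 at 0.29 ± 0.12 (adjusted p = 0.078) and Coq4 at 0.18 ± 0.13 (adjusted p = 0.31) did not pass. Coq2 and Coq4 passed without WT_PBS replicate 3, the highest WT_PBS library for both (0.40, adjusted p = 0.017, and 0.33, adjusted p = 0.049), and Coq10a without ERRKO_PBS replicate 2 or replicate 3 (0.37 in each, adjusted p = 0.050 and 0.017). Coq10a also passed with only the WT groups fitted (0.37, adjusted p = 0.030) and without replicate 3 of both ERRKO groups (0.37, adjusted p = 0.026). In 9 of the 10 genes, all but Coq4, every WT_CL library lay above every WT_PBS library, which 24.3% of tested genes did. On the deposited scale, where the median gene was at -0.26, 6 of the 10 were called higher against 7.20% of all genes.

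In ERRKO part of the pathway was higher with the agonist, mostly from lower levels. Esrrg was higher in the same group, and any link to it was not tested. In ERRKO 6 of the 10 genes were higher with CL316,243, none was lower and 4 did not pass, with a median of 0.52 against 0.03 for all tested genes, where 7.01% of genes were called higher and 3.54% lower. Coq3 rose from 7.05, 8.46 and 7.47 to 13.9, 14.2 and 15.6 (0.89 ± 0.13, adjusted p = 0.0021), which took it above its WT_PBS libraries. Coq9 rose from 35.9, 42.5 and 44.2 to 70.6, 71.0 and 71.1 (0.79 ± 0.09, adjusted p = 5.5e-04), Coq5 from 14.2, 16.2 and 16.6 to 26.6, 26.2 and 25.6 (0.72 ± 0.11, adjusted p = 0.0027) and Coq6 from 12.9, 13.3 and 13.2 to 21.0, 19.6 and 19.5 (0.59 ± 0.07, adjusted p = 7.0e-04). The treated ERRKO levels of Coq9 and Coq6 remained below every vehicle-treated WT library.

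The calls for Coq10a (0.58 ± 0.15, adjusted p = 0.034) and Pdss2 (0.47 ± 0.14, adjusted p = 0.049) were near the threshold. With edgeR they had adjusted p = 0.057 and 0.070, where 5.54% of all genes were called higher, and on the deposited scale 0.12 for each, with 4 genes left at 3.23% of all genes called higher. Neither Coq10a nor Pdss2 passed with no filter on low values (adjusted p = 0.062 and 0.081) or quantile normalization (0.059 and 0.052). Coq10a was also lost with only the groups compared (0.092). Pdss2 was also lost with pseudocount 1 (0.051) and without replicate 3 of both ERRKO groups (0.18). Leaving out 1 library gave 4 to 6 calls, with the share of all genes called in those fits not given here. Pdss2 was lost without any of the 6 ERRKO libraries (adjusted p from 0.056 to 0.18), any WT_CL library (0.060 to 0.067) or WT_PBS replicate 2 (0.052), and Coq10a without any ERRKO library but ERRKO_PBS replicate 3 (0.071 to 0.12) or without WT_CL replicate 3 (0.051). Coq7 (0.23 ± 0.13, adjusted p = 0.30), Coq2 (0.10 ± 0.12), Coq4 (-0.10 ± 0.13) and Pdss1 (-0.36 ± 0.19, adjusted p = 0.27) did not pass, and Pdss1 was at 1.66, 1.12 and 2.14 in ERRKO_PBS and at 1.18, 0.866 and 1.40 in ERRKO_CL.

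The test of whether the agonist response differed between the genotypes was passed by 1 of the 10 genes, where 1.95% of all genes were called with a lower and 1.92% with a higher response in ERRKO, 3.87% in all. This gene was Pdss1 (-1.26 ± 0.27, adjusted p = 0.027), which rose in WT and did not pass in ERRKO. It also passed on the deposited scale (1.26% of all genes called lower) and with edgeR (1.87%), and DESeq2 called Pdss1 and Coq6 (3.40%). With no filter on low values Pdss1 did not pass (-1.26, adjusted p = 0.057) and the gene called was Coq6 (-0.36, adjusted p = 0.041). The call was lost without any WT_CL library, WT_PBS replicate 1 or 2, ERRKO_PBS replicate 1 or 3, or ERRKO_CL replicate 1 or 2, with adjusted p between 0.051 and 0.070 and changes between -1.29 and -1.09, and without replicate 3 of both ERRKO groups (-1.20, adjusted p = 0.054). Coq6 came next at -0.36 ± 0.10 (adjusted p = 0.072), followed by Pdss2 at -0.44 ± 0.19 and Coq3 at -0.43 ± 0.19 (adjusted p = 0.24 for each). Coq9 (0.17 ± 0.13) and Coq10a (0.21 ± 0.22) leaned the other way and did not pass. Without WT_PBS replicate 3 the test called 3 genes, Pdss1, Pdss2 and Coq6. The share of all genes called in that fit is not given here.

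**Figure D4:**
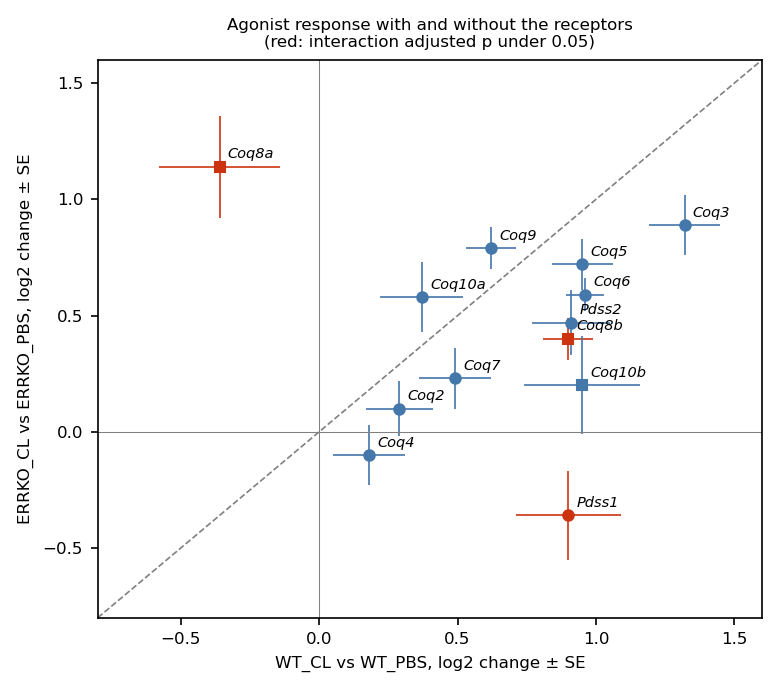
Log2 change ± SE with CL316,243 in WT (horizontal axis) against ERRKO (vertical axis) for the 10 genes (circles) and for Coq8a, Coq8b and Coq10b (squares), with the line of equal response dashed and genes that passed the interaction test in red. Pdss1 lies below 0 in ERRKO at -0.36, Coq8a lies above the line at 1.14 and Coq8b, the third gene in red, lies below it at 0.40.

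The remaining genes tied to ubiquinone synthesis included one of the largest differences. Coq8a (symbol Adck3 in the files, chromosome 1, 180165238 to 180199602, minus strand), an atypical kinase-like ATPase needed for the synthesis complex, was at 569, 587 and 526 in WT_PBS, above each of the 10 genes, and at 18.6, 23.4 and 39.1 in ERRKO_PBS. The mean was 20.8-fold lower (-4.42 ± 0.22, adjusted p = 5.0e-08). With agonist Coq8a was at 431, 414 and 462 in WT_CL and 65.5, 63.7 and 44.6 in ERRKO_CL (-2.92 ± 0.22, adjusted p = 8.0e-07), so in ERRKO it rose by 1.14 ± 0.22 (adjusted p = 0.0091) while the WT change of -0.36 ± 0.22 did not pass (adjusted p = 0.24). With RPKM as deposited the WT change was called lower (-0.69, adjusted p = 0.025). So it was without replicate 3 of both ERRKO groups (-0.36, adjusted p = 0.039). The interaction was 1.50 ± 0.32 (adjusted p = 0.025). The highest ERRKO_PBS value was in replicate 3, with the most muscle RNA. In ERRKO_CL the library with the most muscle RNA, also replicate 3, had the lowest value, 44.6. The muscle markers summed to 324.6, 6.918 and 12.79 in WT_PBS, where Coq8a was highest in replicate 2, at 587. They summed to 98.06, 11.44 and 418.9 in WT_CL, where Coq8a at 431, 414 and 462 followed the same order. The part of muscle RNA in the Coq8a values was not tested beyond leaving out libraries.

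Its paralog Coq8b (Adck4 in the files), another kinase-like protein of the same family, moved otherwise. It was at 7.57, 6.97 and 7.69 in WT_PBS and at 8.80, 8.68 and 8.47 in ERRKO_PBS (0.21 ± 0.09, adjusted p = 0.083), and it rose with agonist in WT to 14.7, 13.4 and 14.7 (0.90 ± 0.09, adjusted p = 3.0e-05) and in ERRKO to 10.4, 11.8 and 12.8 (0.40 ± 0.09, adjusted p = 0.015). The ratio of Coq8a to Coq8b RPKM was 75.2, 84.3 and 68.5 in WT_PBS, 29.2, 30.9 and 31.5 in WT_CL, 2.11, 2.69 and 4.61 in ERRKO_PBS and 6.31, 5.40 and 3.49 in ERRKO_CL. With RPKM as deposited Coq8b was called higher in ERRKO under PBS (0.78, adjusted p = 1.3e-05) and under agonist (0.40, adjusted p = 0.0011), against -0.28 ± 0.09 (adjusted p = 0.021) under agonist on the median-ratio scale, a call lost without ERRKO_CL replicate 1 (adjusted p = 0.087) or WT_CL replicate 1 or 3 (adjusted p = 0.070 and 0.071). Quantile normalization lost that call as well (-0.24, adjusted p = 0.050). The ERRKO rise of Coq8b did not pass without ERRKO_CL replicate 2 or 3 (adjusted p = 0.052 and 0.059), without replicate 3 of both ERRKO groups (0.32, adjusted p = 0.13) or with RPKM as deposited (0.21, adjusted p = 0.12). Coq10b, the paralog of Coq10a, was at 7.82, 11.8 and 13.8 in WT_PBS and 9.74, 7.79 and 6.78 in ERRKO_PBS (-0.41 ± 0.21, adjusted p = 0.14, and -0.64 with adjusted p = 0.026 without WT_PBS replicate 1), and under agonist at 19.7, 22.9 and 21.7 in WT_CL against 9.23, 7.26 and 11.9 in ERRKO_CL (-1.16 ± 0.21, adjusted p = 7.6e-04).

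**Figure D5:**
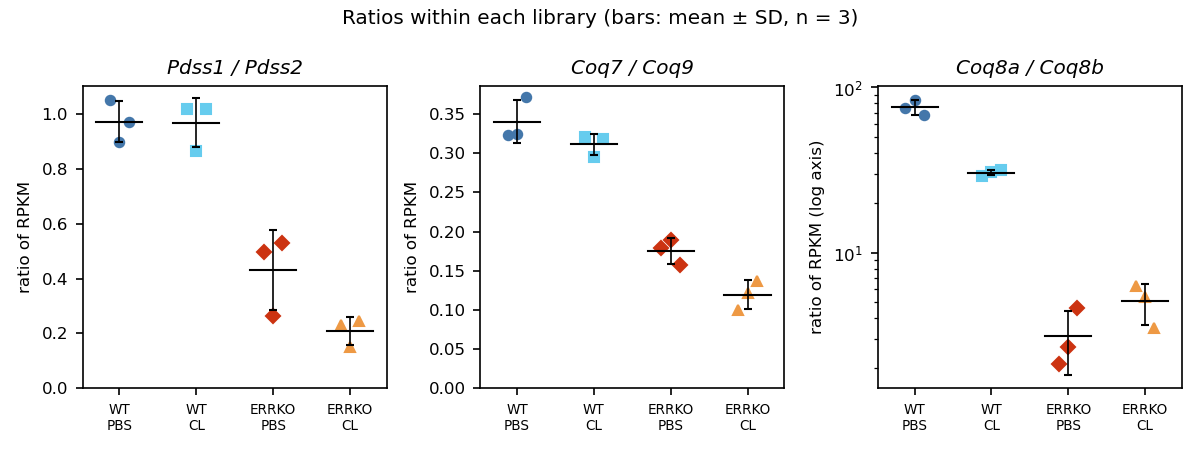
Ratio of RPKM within each library (vertical axis, logarithmic for the last panel) for Pdss1 to Pdss2, Coq7 to Coq9 and Coq8a to Coq8b, with bars for the mean ± SD of 3 libraries. The ratio is lower in all ERRKO than in all WT libraries in each panel, and the Coq8a to Coq8b ratio spans 2.11 to 84.3.

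Other genes that serve the pathway were read from fixed lists. In a list of 12 partners of the synthesis complex, which includes Coq8a, Coq8b and Coq10b, 7 were lower under PBS and none higher (median -0.46), where 18.6% of all genes were called lower, and 10 were lower under agonist (median -0.82), where 21.6% were. After Coq8a the smallest p-values under PBS were those of Pptc7, a mitochondrial phosphatase (30.0 ± 5.68 to 5.57 ± 0.509 scaled RPKM, mean ± SD, n = 3; -2.32 ± 0.14), and Adck1, a further kinase-like protein (-1.05 ± 0.09). Of the Pptc7 exon bases 21.2% overlap the antisense gene Rad9b, so its values are uncertain. Other genes overlap 10.9% of the exon bases of Coq8b and 72.7% of those of Fdx2, a partner called lower in both genotype comparisons. With RPKM as deposited the partners had 4 lower and 3 higher under PBS, and 5 lower and 4 higher under agonist, with the median at 0.11 under PBS and -0.15 under agonist, on a scale where 66.3% and 70.5% of all genes were called higher. The agonist raised 4 of the 12 in WT and 3 in ERRKO, with none lower, where 18.1% and 7.01% of all genes were called higher. On the deposited scale it raised 3 in WT with 2 lower, and 1 in ERRKO with 1 lower. On that scale 7.20% of all genes were called higher and 38.1% lower in WT, and 3.23% and 13.7% in ERRKO.

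The mevalonate pathway supplies the tail, and its list of 12 genes also held Fdft1, Dhdds and Nus1, of branches to other products. Of the 12 genes 3 were lower under PBS and none higher (median -0.21), a share near the 18.6% of all genes called lower. They included Nus1 of a branch (-0.56 ± 0.09) and Hmgcs1, which makes HMG-CoA (40.7 ± 5.50 to 19.5 ± 3.39, -1.05 ± 0.17, adjusted p = 4.4e-04). Under agonist 6 were lower and 1 higher in ERRKO (median -0.36), where 21.6% of all genes were called lower. The 1 that was higher, named after its value was seen, was Dhdds of a branch (0.37 ± 0.10). Acat2, the cytosolic thiolase, was at -0.93 ± 0.13, which on the deposited scale was -0.22 and did not pass (adjusted p = 0.098). Deposited scaling gave 1 lower and 5 higher under PBS (median 0.31), and 2 lower and 4 higher under agonist (median 0.28), against 66.3% and 70.5% of all genes called higher and all-gene medians of 0.53 and 0.63. The agonist raised Hmgcs1 in WT (1.52 ± 0.17) and in ERRKO (1.40 ± 0.17), among 6 raised and 1 lowered in WT and 2 raised in ERRKO, where 18.1% and 7.01% of all genes were called higher. On the deposited scale 2 were raised and 2 lowered in WT, where 7.20% of all genes were called higher and 38.1% lower. In ERRKO 1 was raised and 2 lowered there, against 3.23% and 13.7% of all genes.

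Enzymes that use ubiquinone were read in the same way. Of 15 genes for enzymes that reduce ubiquinone or feed it 11 were lower under PBS and 3 higher (median -1.74). Over all genes 18.6% were called lower under PBS and 15.6% higher, the latter near the share of the 3 genes here. The lower genes included Ndufv1 of complex I (-2.89 ± 0.12) and Sdhd of complex II (-2.56 ± 0.13). The 3 that were higher, named after their values were seen, were Prodh of proline oxidation (4.89 ± 1.47 to 20.2 ± 4.52, 1.96 ± 0.22), Sqor of sulfide oxidation (0.53 ± 0.16, adjusted p = 0.023) and Chdh of choline oxidation (0.64 ± 0.23, adjusted p = 0.046). Sqor was lost without WT_PBS replicate 1 or 2 or ERRKO_PBS replicate 2 (adjusted p = 0.088, 0.074 and 0.079), and Chdh without ERRKO_PBS replicate 2 or 3, WT_PBS replicate 1 or 2, ERRKO_CL replicate 2 or 3 or WT_CL replicate 1 or 3 (adjusted p from 0.054 to 0.17). Without replicate 3 of both ERRKO groups neither passed (adjusted p = 0.066 for Sqor and 0.11 for Chdh). Of 14 genes of complex III and its assembly, which reoxidizes ubiquinol, 13 were lower under PBS (median -2.12), with the smallest p-values for Uqcc1 (-2.07 ± 0.08), Uqcrc1 (-2.73 ± 0.12) and Cyc1 (-2.85 ± 0.12), and 14 under agonist (median -2.54). In the reducing list 10 were lower and 3 higher under agonist (median -1.90). Over all genes 21.6% were called lower under agonist and 19.9% higher, the latter near the share of those 3. Etfdh, which passes electrons from fatty acid oxidation to ubiquinone, rose with agonist in WT (1.28 ± 0.12) and in ERRKO (1.36 ± 0.12). The agonist raised 9 of the 15 and lowered 1 in WT and raised 4 in ERRKO. Of the 14 complex III genes it raised 14 in WT and 2 in ERRKO. Over all genes 18.1% were called higher and 12.2% lower in WT, and 7.01% and 3.54% in ERRKO. Deposited scaling gave, in the reducing list, 9 lower and 5 higher under PBS, 9 lower and 4 higher under agonist, 8 raised and 3 lowered by the agonist in WT, and 1 raised and 1 lowered in ERRKO. In the complex III list it gave 11 lower under PBS and 11 under agonist, 9 raised in WT and 1 in ERRKO. On that scale 6.22% of all genes were called lower and 66.3% higher under PBS, and 6.62% and 70.5% under agonist. With the agonist 7.20% were called higher and 38.1% lower in WT, and 3.23% and 13.7% in ERRKO.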

How the data were processed

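RNA-seq of brown adipose tissue was analysed in 4 groups of 3 libraries, with group and replicate from the labels. Library preparation used Illumina's TruSeq total RNA kit, per the labels' protocols. The submitters' processing notes list STAR 2.3.0, cutadapt, edgeR and bcl2fastq 2.16.0.10, and both mm10 and mm9 without saying which build served for what. How reads were counted, on which gene models and with which strand setting is not given in the sources used here. The authors deposited RPKM values for 24452 genes, scaled to gene length and a library total that is not stated. The second table deposited by the authors holds 12380 genes as a linear signal judged from its values, which are whole multiples of 1 step per library (100% of values within 0.01), so reads were recovered by division. A further 9 cells of that table lie outside any sample column and were left aside.

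The main test was limma 3.58.1 (trended empirical Bayes, R 4.3.3) on log2(scaled RPKM + 0.5), for the 12249 genes whose mean RPKM reached 0.5. All 12 libraries entered 1 fit of 4 group means (8 residual degrees of freedom), with Benjamini-Hochberg adjustment per comparison, 5 in all. edgeR 4.0.16 (quasi-likelihood, TMM) and DESeq2 1.42.0 were run on the recovered reads, where edgeR called 4305 genes for ERRKO_PBS against WT_PBS. Members and lists were chosen with earlier results of these data known. Named genes were the 10 members, Coq8a, Coq8b, Coq10b, the check genes Esrra, Esrrg and Ucp1 and, from each list, up to 3 called genes with the smallest p. Ratios were chosen, and the adipocyte markers read gene by gene, after the values were seen. Gene positions are 1-based and were read from GENCODE M21 (GRCm38). The fit was tested on simulated data. Alternatives were the deposited scale, quantile normalization, pseudocounts of 0.1 and 1, no filter or a mean RPKM of at least 2, only the groups compared, the count tests, a replicate block and libraries left out. Same-numbered libraries deviated together in some pairs and not in others: 7 of 18 pairs correlated over 0.1 (range -0.39 to 0.45). The highest correlation was between replicate 3 of WT_CL and of ERRKO_PBS. Libraries with different numbers were not compared, so whether the numbers pair libraries cannot be told from this. The main fit did not pair libraries by number.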

Additional observations from a re-analysis of the deposited data

Results flagged for a closer look

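A difference in the agonist response between the genotypes passed the interaction test for 5 genes of the lists, where 3.87% of all tested genes passed in either direction. They were 1 of the 10 members, 1 of the 12 mevalonate genes and, among the 12 partners, 1 called higher and 2 lower. None of the 15 ubiquinone-reducing or 14 complex III genes passed. Pdss1 had an interaction of -1.26 ± 0.27 (adjusted p = 0.027), with a rise of 0.90 in WT and a change of -0.36 in ERRKO that did not pass. Coq8a had an interaction of 1.50 ± 0.32 (adjusted p = 0.025), which was lost without any WT_CL library, ERRKO_CL replicate 1 or 2 or WT_PBS replicate 2 (adjusted p from 0.055 to 0.065). It was also lost with no filter on low values (adjusted p = 0.054). Coq8b had an interaction of -0.50 ± 0.12 (adjusted p = 0.049), which did not pass with RPKM as deposited (-0.37, adjusted p = 0.10) or in 10 of the 12 fits without 1 library, where adjusted p reached 0.12. Oma1, a mitochondrial protease, stood at -0.67 ± 0.16 (adjusted p = 0.045) and Idi1 of isoprenoid synthesis at -0.93 ± 0.23 (adjusted p = 0.049). With RPKM as deposited neither passed (-0.56 with adjusted p = 0.077 for Oma1, -0.82 with adjusted p = 0.057 for Idi1), nor did they without most single libraries.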

How the results depend on the processing

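Of 1482 values of the 10 genes, Coq8a, Coq8b and Coq10b under alternatives, 1371 kept their direction and side of the threshold, 82 lost the call, 15 gained it and 14 turned. As deposited, RPKM gave 2 members higher under PBS, 6 lower and 2 higher under agonist, and turned Pdss2 (0.25), Coq2 (0.40) and Coq10b (0.15) under PBS, Coq2 (0.32), Coq3 (0.28) and Coq8b (0.40) under agonist, Coq2 (-0.03) and Coq4 (-0.12) for the agonist in WT, and Coq2 (-0.11) and Coq10b (-0.00) in ERRKO. It called 8877 genes under PBS against 4189, 9451 against 5073 under agonist, and 2068 against 1293 for the agonist in ERRKO. Coq3 under PBS, near 0, turned to -0.06, -0.02 and -0.09 without ERRKO_PBS replicate 2, WT_PBS replicate 1 or WT_PBS replicate 2, and Coq10b in ERRKO to -0.08 without replicate 3 of both ERRKO groups. Interaction calls among the 10 genes numbered 2 with DESeq2, 0 without replicate 3 of both ERRKO groups and 0 to 3 without 1 library. Without 1 library the lower calls were 7 to 7 under PBS and 9 to 10 under agonist, and the higher calls 6 to 9 in WT and 4 to 6 in ERRKO. The shares of all genes called in the fits without libraries are not given here. With a replicate block Pdss2 in ERRKO had adjusted p = 0.058 and the Coq8b interaction adjusted p = 0.076. The interactions of Oma1 and Idi1 had 0.069 and 0.082, and the block changed no other call. Whether the numbers pair the libraries is not known. DESeq2 called 823 interaction genes against 474. Depth limits Pdss1, with 27 to 197 reads per library.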
